A study of Ovis aries and Bos taurus with 15 samples.

Results

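Interferons are cytokines that cells release on viral infection. Type I interferons bind a receptor made of IFNAR1 and IFNAR2, and interferon gamma binds IFNGR1 and IFNGR2. The kinases on these receptors phosphorylate STAT proteins, and STAT2 acts in the nucleus with IRF9 to switch on antiviral genes. Endothelial cells respond to both kinds of interferon and carry the antigen presentation machinery that interferon gamma raises. The interferon response genes described here were a list of 59 symbols, and a probe set was taken for a gene where the platform annotation gave exactly 1 symbol and that symbol was on the list. Of the list, 43 symbols were measured, on 62 probe sets, out of 9155 genes named on the arrays. The other 16 symbols (IFNGR1, IRF1, IFIH1, RIGI, its older name DDX58, ADAR, IFIT1, IFIT3, OAS1Y, OAS1Z, OAS2, ISG20, CMPK2, BST2, SAMHD1 and SP100) were not analysed here.

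RNA from cultured endothelial cells was hybridised to 15 arrays carrying bovine probes, 5 per group. Ovine PAEC, the pulmonary endothelial cells of the study's title, received 5 µM GW9662, an irreversible antagonist of the nuclear receptor PPARγ, for 24 h. Bovine cells labelled BAEC were controls for which the labels give no treatment. Ovine PAEC given the DMSO vehicle for 24 h were the other control, and all 3 groups were grown in DMEM with 10% FBS. Values are log2 expression values, so a difference of 1 is a doubling of signal. Nothing in the labels says that the 5 arrays of a group came from separate cultures or animals, and the p-values therefore speak only of the spread among these samples, which may be technical.

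Array medians lay between 3.18 and 3.27. One ovine vehicle array, replicate 1, stood apart from its group, with a standard deviation of 0.277 from the mean of the other 4 against at most 0.178 for any other array, and results are given with and without it. The endothelial adhesion protein PECAM1 averaged 11.48 with GW9662, 11.68 in bovine cells and 11.63 with vehicle. The junction cadherin CDH5 averaged 11.35, 11.64 and 11.47 in the same order. Of 13 endothelial markers measured, VWF was under 3 in all groups, and the tight junction protein CLDN5 was at 2.43 with GW9662, 5.03 in bovine cells and 2.45 with vehicle. Of 9 leukocyte markers 8 were under 3 in every group, PTPRC among them, and the exception was CD14, at 6.72 with GW9662, 2.27 in bovine cells and 6.69 with vehicle.

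A mean under 3 was taken as the floor of the arrays, since nothing in the deposited values separates a signal there from background. Of the 43 members, 7 were under 3 in every group: ISG15, the ubiquitin-like protein that interferon induces, the dynamin-like GTPases MX1 and MX2, the oligoadenylate synthetase OAS1X, IFI27, SAMD9, which restricts poxviruses, and XAF1, which binds the apoptosis inhibitor XIAP. Their group means lay between 2.00 and 2.82. ISG15 read 2.46, 2.46, 2.46, 2.44 and 2.45 in GW9662 arrays, 2.45, 2.50, 2.46, 2.45 and 2.45 in bovine arrays, and 2.50, 2.50, 2.46, 2.46 and 2.46 in vehicle arrays. ISG15, MX1 and MX2 are among the most strongly induced by type I interferon in other settings, and here none of the 15 arrays gave ISG15 a signal above the floor. The interferon genes IFNB1, IFNG and IFNAC, taken from a further list of pathway genes, were under 3 in each group as well (2.22, 2.67 and 2.71 with GW9662, 2.21, 2.66 and 2.72 in bovine cells, and 2.24, 2.79 and 2.75 with vehicle). A further 33 members averaged 3 or more in all 3 groups, and the remaining 3 (IFIT2, IFNAR1 and IRF2) only in some. Under 3 over the ovine arrays stood 9 of 43 members, or 20.9%, beside 31.2% of the 9155 named genes.

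The first comparison asked whether blocking PPARγ for 24 h altered these genes in ovine PAEC. None of the 43 members passed the test, in either direction, with GW9662. In limma, adjusted over all 24016 probe sets, 0 rose and 0 fell, where 0.218% of the named genes passed (0.142% higher and 0.0765% lower). At an unadjusted p under 0.05 in either direction there were 4 members, all lower, or 9.30%, beside 20.1% of the named genes (702 higher and 1140 lower). Of the differences, 18 were positive and 25 negative, with a median of -0.02 on the log2 scale and a median of -0.01 over all named genes. Groups did not overlap for 2 members, MX2 and ISG15, both at the floor, or 4.65% against 11.6% of named genes. The count of members that passed was 0 without vehicle replicate 1 and 0 under each of the other 18 settings tried.

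**Figure D1:**
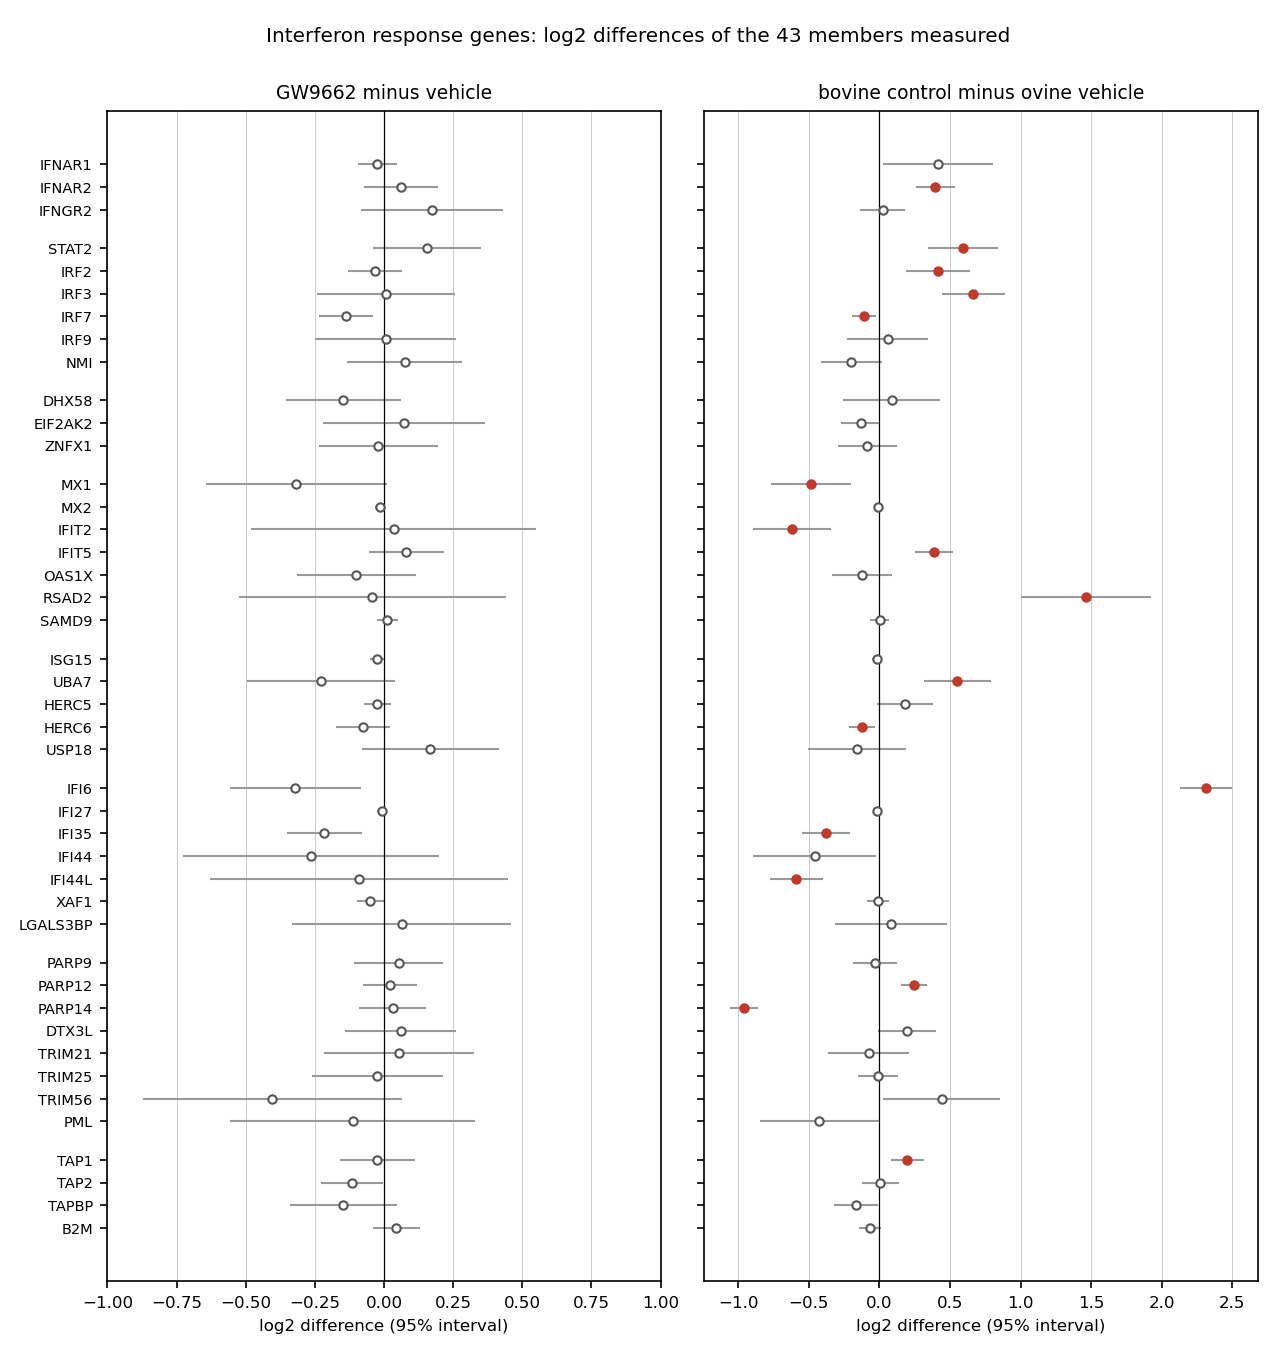
Log2 differences of the 43 members (points, the brightest probe set of each gene) with 95% intervals from limma (lines), grouped by role from receptors at the top to antigen presentation at the bottom, for GW9662 minus vehicle on the left and bovine control minus ovine vehicle on the right, on different horizontal scales. Filled points passed the threshold: 0 of 43 on the left, and 17 of 43 on the right, led by IFI6 and RSAD2 on the higher side and PARP14 on the lower side.

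The 4 members of smallest p with GW9662 were IFI35, IRF7, IFI6 and TAP2. IFI35, which pairs with NMI in the cytoplasm, read 6.44, 6.69, 6.64, 6.62 and 6.71 with GW9662 and 6.86, 6.68, 6.83, 6.88 and 6.92 with vehicle. The lowest vehicle array lay inside the GW9662 range, and the log2 difference of -0.22 (SE 0.060) had an adjusted p of 0.212. IRF7, the factor that drives interferon alpha genes and is itself induced by interferon, read 3.13, 3.12, 3.00, 3.09 and 3.08 with GW9662 and 3.25, 3.25, 3.12, 3.15 and 3.33 with vehicle, a difference of -0.14 (SE 0.043, adjusted p = 0.217). The values lie close to the floor, and the groups overlapped at 1 vehicle array.

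IFI6, a membrane protein that limits flavivirus replication, read 6.47, 6.37, 6.15, 6.10 and 6.02 with GW9662 and 6.32, 6.62, 6.73, 6.53 and 6.51 with vehicle. Its difference was -0.32 (SE 0.10, adjusted p = 0.217), and 4 of 5 vehicle arrays lay above all GW9662 arrays. TAP2, a subunit of the peptide transporter that feeds class I molecules, read 9.60, 9.72, 9.61, 9.68 and 9.62 with GW9662 and 9.67, 9.94, 9.72, 9.77 and 9.71 with vehicle (difference -0.12, SE 0.050, adjusted p = 0.230). The GW9662 arrays sat in the lower part of the joint range and overlapped the vehicle arrays.

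TRIM56, a ubiquitin ligase of antiviral signalling, had the largest difference with GW9662 among the brightest probe sets of the members, -0.40 (SE 0.21, adjusted p = 0.260). It read 5.89, 6.02, 5.03, 5.58 and 5.48 with GW9662 and 5.96, 6.24, 6.26, 5.53 and 6.02 with vehicle, and the groups overlapped. MX1 read 2.69, 2.39, 2.38, 2.38 and 2.69 with GW9662 and 2.46, 2.85, 2.59, 3.07 and 3.14 with vehicle (difference -0.32, SE 0.14, adjusted p = 0.239). Only the 2 highest vehicle arrays were above 3. XAF1 read 2.40, 2.44, 2.44, 2.43 and 2.44 with GW9662 and 2.47, 2.49, 2.56, 2.45 and 2.44 with vehicle (adjusted p = 0.238). ISG15 differed by -0.02 (adjusted p = 0.25).

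**Figure D2:**
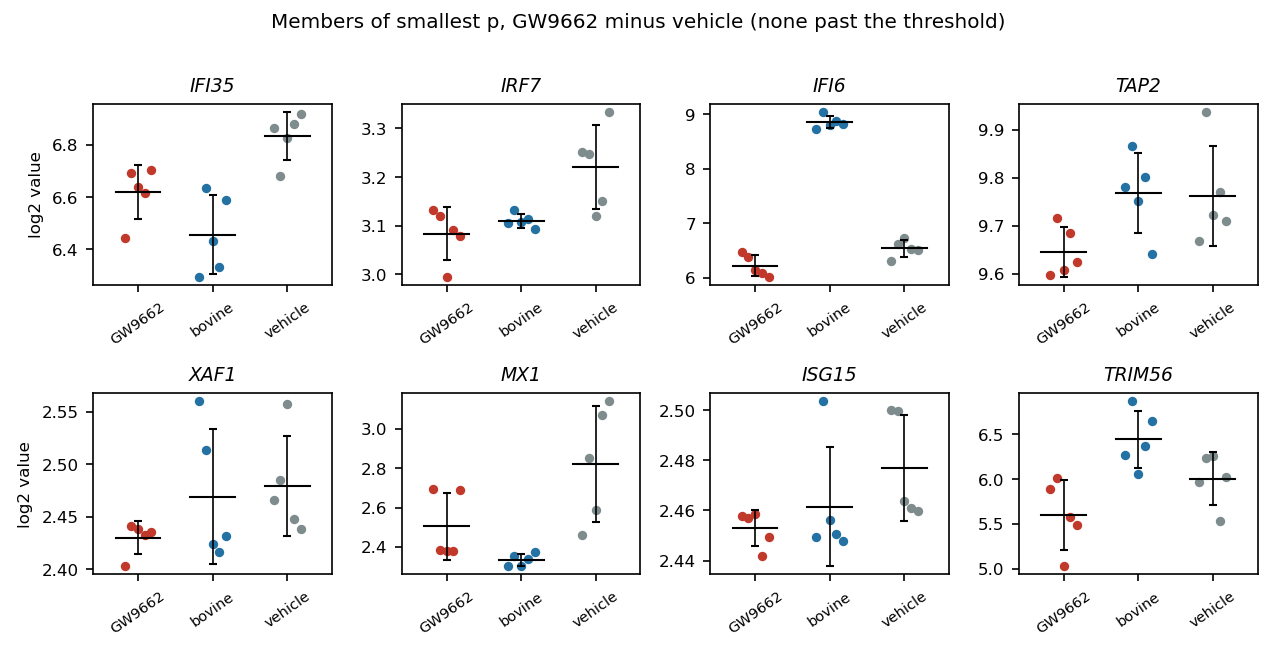
Log2 values per array of the 8 members with the smallest p for GW9662 minus vehicle, in GW9662, bovine and vehicle arrays (5 points each; bars show the mean and SD), each panel with its own vertical scale that does not start at 0. In 7 of the 8 panels the GW9662 and vehicle points overlap; in ISG15 they do not, at levels between 2.44 and 2.50.

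By role, the receptors gave differences of 0.06 for IFNAR2, 0.17 for IFNGR2, the signalling chain of the interferon gamma receptor, and -0.02 for IFNAR1, which averaged 2.98 and 3.01. IFNAR2 averaged 7.65 with GW9662 and 7.59 with vehicle, and IFNGR2 averaged 6.97 and 6.80. Among transcription factors STAT2 was at 0.15 (SE 0.086), IRF3, which is present before infection and is activated by phosphorylation, at 0.01 (SE 0.11), IRF9 at 0.01 and NMI at 0.07. STAT2 averaged 4.74 ± 0.13 with GW9662 and 4.58 ± 0.16 with vehicle (SD, n = 5 each), with overlap. None of these passed in limma (adjusted p of 0.28 or more).

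The double-stranded RNA kinase EIF2AK2 had 2 probe sets that differed in size. The brighter was at 0.07 (SE 0.13, adjusted p = 0.707) and the other at 0.52 (SE 0.16, adjusted p = 0.217), with means of 5.01 for GW9662 and 4.49 for vehicle. Of the other RNA sensors, DHX58, a regulator of RIG-I-like receptors, was at -0.15 and the helicase ZNFX1 at -0.02. IFIT5, which binds RNA ends and is among the brighter members, averaged 10.23 ± 0.066 with GW9662 and 10.15 ± 0.12 with vehicle (difference 0.08, adjusted p = 0.376). RSAD2, or viperin, which makes a chain-terminating nucleotide, averaged 3.84 and 3.88. UBA7, the activating enzyme for ISG15, averaged 6.34 and 6.57 (difference -0.23, SE 0.12, adjusted p = 0.262). Antigen presentation genes lay between -0.15 for the peptide loading factor TAPBP and 0.04 for B2M, the light chain of class I molecules.

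The remaining bright members of each role overlapped between GW9662 and vehicle arrays. IFNAR2 read 7.72, 7.70, 7.68, 7.60 and 7.55 with GW9662, inside the vehicle range of 7.42 to 7.73. IRF3 read 8.59, 8.76, 8.52, 8.38 and 8.72 with GW9662, within the vehicle range of 8.34 to 8.80. IFIT5 read 10.22, 10.13, 10.31, 10.25 and 10.23 with GW9662, and the vehicle arrays spanned 10.04 to 10.30. In these 3 genes the groups overlapped. RSAD2 read 3.83, 3.68, 4.11, 3.82 and 3.75 with GW9662, inside the vehicle range of 3.07 to 4.29. UBA7 read 6.36, 6.53, 6.41, 6.18 and 6.22 with GW9662, and the vehicle arrays, at 6.30 to 6.83, overlapped them. DTX3L read 8.45, 8.31, 8.45, 8.43 and 8.50 with GW9662, and PARP14 read 10.38, 10.17, 10.35, 10.22 and 10.19 with GW9662. USP18 on the probe set brightest over the ovine arrays read 4.49, 4.27, 4.74, 4.53 and 4.24 with GW9662 and 4.29, 4.14, 4.54, 4.27 and 4.20 with vehicle (0.17, adjusted p = 0.328).

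The 95% intervals, taken on the brightest probe set of each gene, reflect the spread among these arrays, which may be technical. All 43 lay within 1 log2 unit of 0, 35 within 0.5 and 19 within 0.25. Narrow intervals of members under 3 in every group, such as MX2 and ISG15, set no limit on a change in expression. The 8 that reached 0.5 were IFIT2, MX1, RSAD2, IFI44, IFI44L, IFI6, PML and TRIM56. Dimmer probe sets of EIF2AK2 (0.15 to 0.89) and PARP12 (-0.20 to 0.72) also reached past 0.5. IFI44L read 6.72, 6.91, 5.88, 6.53 and 5.71 with GW9662 and 6.67, 6.28, 6.59, 6.42 and 6.25 with vehicle, the widest SD of any member above the floor with GW9662 (0.528 against 0.183). IFIT2 followed, at 3.39, 3.89, 2.79, 3.18 and 3.81 with GW9662 and 3.68, 3.55, 3.48, 3.24 and 2.96 with vehicle. Both sets of arrays covered much of the same range. The difference between 3′ and 5′ control probe sets, a measure of RNA quality, was 0.956 ± 0.074 with GW9662 and 1.18 ± 0.085 with vehicle. The groups did not overlap in it (exact permutation test, two-sided p = 0.00794, the least this design can give). A fit with this measure as a covariate called 0 members, but also 0 of all 24016 probe sets, so its count says nothing about the members. The part of the measure in these values was not otherwise tested.

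The second comparison set the bovine controls against ovine vehicle. Species, the cells of origin and the match of RNA to bovine probes differ together here and cannot be told apart, and the labels do not say whether the bovine cells received the vehicle. Of 43 members 10 were higher in bovine cells, 7 were lower and 26 did not pass. That is 39.5% called, beside 49.2% of all named genes, 23.3% higher beside 21.9%, and 16.3% lower beside 27.3%. The median difference was -0.01 for the members and -0.02 for all named genes. Groups did not overlap for 19 members, or 44.2%, against 50.8% of named genes. The members were called at a share near or under that of the named genes, which also held with array centring (34.9% beside 35.3%) and after a second quantile normalisation (37.2% beside 37.0%). Without vehicle replicate 1 the counts were 10 higher and 8 lower. With the 3′ minus 5′ measure added to the model 2 of the 17 calls were left, IFI6 and PARP14, or 4.65% of members beside 9.25% of named genes. The measure lay at 0.843 to 0.942 in bovine arrays and 1.07 to 1.30 in vehicle arrays, so this fit could hardly separate it from group. Its control probe sets are bovine, so between species it may also hold the match of RNA to probes. Its part in the calls was not tested.

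IFI6 was the member with the largest difference. It read 8.73, 9.04, 8.81, 8.88 and 8.83 in bovine arrays and 6.32, 6.62, 6.73, 6.53 and 6.51 in ovine vehicle arrays, 2.32 higher on the log2 scale, or 4.98-fold (SE 0.082, adjusted p = 6.0e-08). All 5 bovine arrays lay above all 10 ovine arrays, GW9662 included. RSAD2 read 5.34, 5.29, 5.32, 5.32 and 5.44 in bovine arrays and 4.29, 3.07, 3.89, 4.04 and 4.11 in vehicle arrays, 1.46 higher (SE 0.20, adjusted p = 0.000531). The bovine arrays differed by little, whereas vehicle replicate 2 sat near the floor. These 2 were the only called members with a log2 difference of at least 1 in size, which 6.65% of named genes reached. At an unadjusted p under 0.05 there were 22 members, or 51.2%, beside 58.8% of named genes.

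Of the 9 receptors and transcription factors measured, 4 were higher in bovine cells (IRF3, STAT2, IRF2 and IFNAR2), 1 was lower (IRF7) and 4 did not pass (IFNAR1, IFNGR2, IRF9 and NMI). Over all named genes 21.9% were higher and 27.3% lower, and whether these 9 depart from those shares was not tested. IRF3 read 9.24, 9.44, 9.23, 9.14 and 9.22 in bovine arrays and 8.39, 8.71, 8.80, 8.34 and 8.69 in vehicle arrays (difference 0.67, SE 0.10, adjusted p = 0.00086). STAT2 read 5.28, 5.45, 4.90, 5.07 and 5.19 in bovine arrays and 4.84, 4.45, 4.58, 4.45 and 4.61 in vehicle arrays (0.59, SE 0.11, adjusted p = 0.00317). IFNAR2 read 8.07, 7.97, 7.96, 7.87 and 8.04 in bovine arrays and 7.42, 7.57, 7.73, 7.57 and 7.65 in vehicle arrays (0.40, SE 0.060, adjusted p = 0.000938). In each of these the bovine and vehicle arrays did not overlap, though 1 GW9662 array reached into the bovine range of STAT2. IRF2, which competes with IRF1 for its sites, read 3.28, 3.44, 2.99, 3.13 and 3.53 in bovine arrays and 2.93, 2.72, 2.89, 2.89 and 2.86 in vehicle arrays, with every vehicle array under 3 (0.41, adjusted p = 0.0119), so the size of its difference cannot be read as expression. IFNAR1 read 3.11, 3.15, 3.34, 4.11 and 3.40 in bovine arrays and 3.01, 3.04, 3.04, 2.92 and 3.04 in vehicle arrays, without overlap but with 1 bovine array far above the rest, and did not pass (0.41, adjusted p = 0.0746). IRF9 averaged 3.24 in bovine arrays and 3.18 in vehicle arrays and did not pass either (adjusted p = 0.709).

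**Figure D3:**
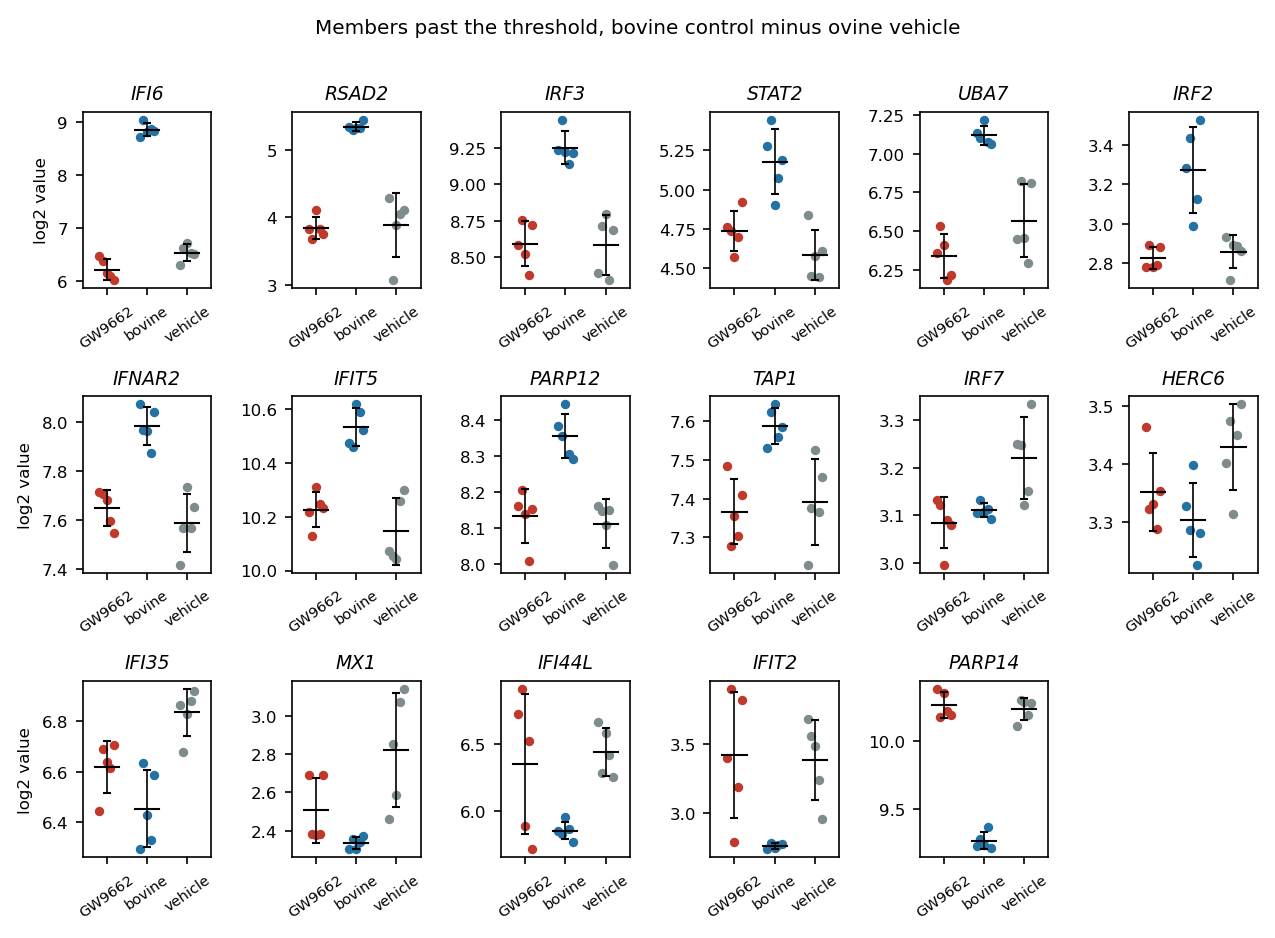
Log2 values per array of the 17 members past the threshold for bovine control minus ovine vehicle, from the most positive difference (IFI6) to the most negative (PARP14), in GW9662, bovine and vehicle arrays (5 points each; bars show the mean and SD), each panel with its own vertical scale that does not start at 0. In 9 of the 10 genes that were higher all 5 bovine points lie above all 10 ovine points, and in 3 of the 7 that were lower (IFIT2, MX1 and PARP14) they lie below them.

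UBA7 read 7.13, 7.10, 7.22, 7.08 and 7.06 in bovine arrays and 6.45, 6.83, 6.46, 6.30 and 6.81 in vehicle arrays (0.55, SE 0.10, adjusted p = 0.00352). Of the rest of the ISG15 pathway, the ligase HERC6 was lower, at 3.30 ± 0.063 in bovine arrays and 3.43 ± 0.074 in vehicle arrays, with overlap (-0.12, adjusted p = 0.0393). Its call was lost with array centring (adjusted p = 0.147). The ligase HERC5 was at 0.18 and the deconjugating protease USP18 at -0.16, and neither passed. IFIT5 read 10.47, 10.46, 10.62, 10.59 and 10.52 in bovine arrays and 10.07, 10.05, 10.04, 10.26 and 10.30 in vehicle arrays (0.39, SE 0.060, adjusted p = 0.0011). TAP1, the partner of TAP2, read 7.53, 7.62, 7.64, 7.56 and 7.58 in bovine arrays and 7.23, 7.37, 7.53, 7.37 and 7.46 in vehicle arrays, a gap of 0.20 between means that was small but without overlap (adjusted p = 0.0162). With the 3′ minus 5′ measure in the model the TAP1 difference turned to -0.0542 (adjusted p = 0.979). TAP2 read 9.78, 9.87, 9.75, 9.80 and 9.64 in bovine arrays, with a mean of 9.77 against 9.76 in vehicle arrays.

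Several of the brightest members did not pass on their brightest probe set. B2M, the brightest of all 43, read 13.44, 13.48, 13.38, 13.50 and 13.41 with GW9662, 13.32, 13.29, 13.37, 13.32 and 13.36 in bovine arrays, and 13.30, 13.44, 13.44, 13.34 and 13.46 with vehicle. NMI read 9.18, 9.31, 9.14, 9.06 and 8.91 with GW9662, 8.76, 8.96, 8.81, 8.65 and 9.05 in bovine arrays, and 8.83, 9.20, 9.21, 8.98 and 9.01 with vehicle. IFNGR2 read 7.03, 6.62, 7.17, 6.88 and 7.16 with GW9662, 6.92, 6.74, 6.91, 6.80 and 6.74 in bovine arrays, and 6.63, 6.94, 6.72, 6.76 and 6.94 with vehicle. In all 3 genes the ranges of the groups overlapped with vehicle. LGALS3BP, a secreted glycoprotein that binds galectins, read 7.61, 7.56, 7.51, 7.37 and 7.50 with GW9662, 7.37, 7.55, 7.47, 7.58 and 7.65 in bovine arrays, and 6.82, 7.84, 7.73, 7.37 and 7.46 with vehicle, where replicate 1 was the lowest of all 15.

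Among the RNA sensors none was called, and DHX58 averaged 3.92 in bovine arrays and 3.83 in vehicle arrays. ZNFX1 read 7.74, 7.50, 7.70, 7.64 and 7.65 with GW9662, 7.56, 7.47, 7.59, 7.67 and 7.61 in bovine arrays, and 7.45, 7.72, 7.92, 7.47 and 7.78 with vehicle. EIF2AK2 read 4.87, 5.22, 4.86, 4.87 and 5.45 with GW9662, 4.86, 4.85, 4.85, 4.83 and 4.86 in bovine arrays, and 4.88, 4.87, 5.16, 4.89 and 5.11 with vehicle. The bovine arrays lay just under the vehicle arrays for EIF2AK2 (-0.13, adjusted p = 0.0963) and among them for ZNFX1. USP18 on the probe set that was brightest in the bovine fit read 4.23, 4.36, 4.34, 4.35 and 4.35 with GW9662, 4.22, 4.39, 4.22, 4.08 and 3.93 in bovine arrays, and 4.02, 4.86, 4.34, 4.22 and 4.21 with vehicle. Of the ubiquitin ligases TRIM21 averaged 5.06 in bovine arrays and 5.13 in vehicle arrays, TRIM25 averaged 7.92 and 7.93, and TRIM56 differed by 0.44. PML, which builds nuclear bodies, averaged 5.76 and 6.19. None of these 4 passed (adjusted p of 0.0745 or more).

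PARP14, a mono-ADP-ribosyltransferase with macrodomains, was the clearest member on the lower side. It read 9.23, 9.28, 9.24, 9.37 and 9.22 in bovine arrays and 10.10, 10.30, 10.28, 10.19 and 10.27 in vehicle arrays, a difference of -0.96 (SE 0.044, adjusted p = 3.3e-07). The GW9662 arrays, at 10.17 to 10.38, lay with the vehicle arrays. In the sheep assembly ARS-UI_Ramb_v3.0 PARP14 follows PARP9 and DTX3L with no other protein-coding gene between them, and the products of those neighbours form a complex that modifies histones and host proteins. PARP9 averaged 6.94 in bovine arrays and 6.98 in vehicle arrays (-0.03, adjusted p = 0.686), and DTX3L read 8.65, 8.57, 8.62, 8.59 and 8.42 in bovine arrays and 8.21, 8.17, 8.33, 8.52 and 8.61 in vehicle arrays (0.20, adjusted p = 0.0971). Neither passed, so of the 3 neighbours PARP14 alone was called. PARP12, a related enzyme, read 8.38, 8.36, 8.45, 8.31 and 8.29 in bovine arrays and 8.16, 8.15, 8.11, 8.15 and 8.0 in vehicle arrays, 0.24 higher without overlap (adjusted p = 0.00136).

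IFI44L and IFIT2 were also lower in bovine cells. IFI44L read 5.85, 5.82, 5.95, 5.86 and 5.77 in bovine arrays and 6.67, 6.28, 6.59, 6.42 and 6.25 in vehicle arrays (-0.59, SE 0.083, adjusted p = 0.000563), while the GW9662 arrays at 5.88 and 5.71 lay in or below the bovine range. Its neighbour IFI44 averaged 3.06 in bovine arrays and 3.52 in vehicle arrays on its brightest probe set and did not pass (-0.46, adjusted p = 0.0749). IFIT2 read 2.74, 2.78, 2.75, 2.77 and 2.78 in bovine arrays, under the floor, and 3.68, 3.55, 3.48, 3.24 and 2.96 in vehicle arrays (-0.62, SE 0.12, adjusted p = 0.00443). No bovine array overlapped an ovine one, but with bovine values at the floor the size of the IFIT2 difference cannot be read as expression. IFI35 read 6.29, 6.63, 6.43, 6.33 and 6.59 in bovine arrays and 6.86, 6.68, 6.83, 6.88 and 6.92 in vehicle arrays (-0.38, SE 0.075, adjusted p = 0.00472).

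MX1 read 2.30, 2.35, 2.31, 2.34 and 2.37 in bovine arrays, with a mean of 2.34 against 2.82 in vehicle arrays, both under the floor (-0.49, adjusted p = 0.016), so its difference has no size that can be read as expression. IRF7, at 3.11 in bovine arrays and 3.22 in vehicle arrays, passed narrowly (-0.11, adjusted p = 0.0403) and passed in only 5 of 19 alternative settings. HERC6 passed in 4 of 19. The other 15 called members passed in at least 17 of their alternatives. In the model with the 3′ minus 5′ measure, 8 of the 17 differences were at least as large as without it, among them PARP14 (-1.14), RSAD2 (1.70), UBA7 (0.78), STAT2 (0.74) and PARP12 (0.36). Of these 8 only PARP14 still passed, and the others had an adjusted p of 0.0942 or more. The differences of IFI6 (1.84, which still passed), IRF3 (0.37) and IFNAR2 (0.13) were smaller. The 3′ minus 5′ measure was 0.881 ± 0.043 in bovine arrays and 1.18 ± 0.085 in vehicle arrays, again with no overlap (exact permutation test, two-sided p = 0.00794).

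Cell type markers also differed between these groups. Of the 13 endothelial markers 5 were higher in bovine arrays and 4 lower, where 21.9% of named genes were higher and 27.3% lower. The mean level of the 13 was 8.60 to 8.74 in bovine arrays and 8.20 to 8.30 in vehicle arrays. The guidance receptor ROBO4 was 1.67 higher and CLDN5 2.58 higher in bovine cells, the largest differences of the list. CLDN5 was at the floor with vehicle (2.45), so the size of its difference cannot be read as expression. The other higher markers were TEK (0.67), EGFL7 (0.46) and CDH5 (0.17). The lower ones were ENG (-0.29), ERG (-0.20), MCAM (-0.13) and VWF (-0.03, at the floor), so the list mean does not stand for each marker. These are the brightest probe sets. Dimmer ones of CDH5 (1.01, adjusted p = 0.000331) and PECAM1 (0.54, adjusted p = 0.00215) were also higher, where the brightest of PECAM1 was at 0.05. One of KDR at the floor was lower (-0.05, adjusted p = 0.0113), and those of ERG and VWF did not pass. The mean level of 9 leukocyte markers was 2.40 to 2.44 in bovine arrays and 2.93 to 2.99 in vehicle arrays, with 8 of the 9 under 3 in every group. The gap between these means follows CD14 alone, at 2.27 in bovine arrays and 6.69 in vehicle arrays. The mean of 5 smooth muscle markers was 3.64 to 3.81 in bovine arrays and 3.26 to 3.35 in vehicle arrays, with 4 of 5 under 3. The 5 fibroblast markers averaged 4.08 to 4.12 and 4.13 to 4.17, with COL3A1 the only one above the floor, and all 5 epithelial markers were under 3. The part of these in the members' differences was not tested.

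Averaged over the 35 members with a mean of 3 or more over all arrays, the level per array was above the vehicle group mean by 0.09 to 0.15 in bovine arrays and between -0.08 and 0.01 in GW9662 arrays, and ranged from -0.07 to 0.08 among vehicle arrays themselves. Over 6335 named genes chosen the same way it was 0.05 to 0.06 in bovine arrays, 0.00 to 0.04 in GW9662 arrays and -0.12 to 0.06 in vehicle arrays. The median over the members was -0.04 to 0.03 in bovine arrays, on both sides of 0. The median SD among replicates over the 35 members was 0.096 in GW9662 arrays, 0.083 in bovine arrays and 0.16 in vehicle arrays, where RSAD2 (0.476) and IFI44 (0.434) varied most.

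**Figure D4:**
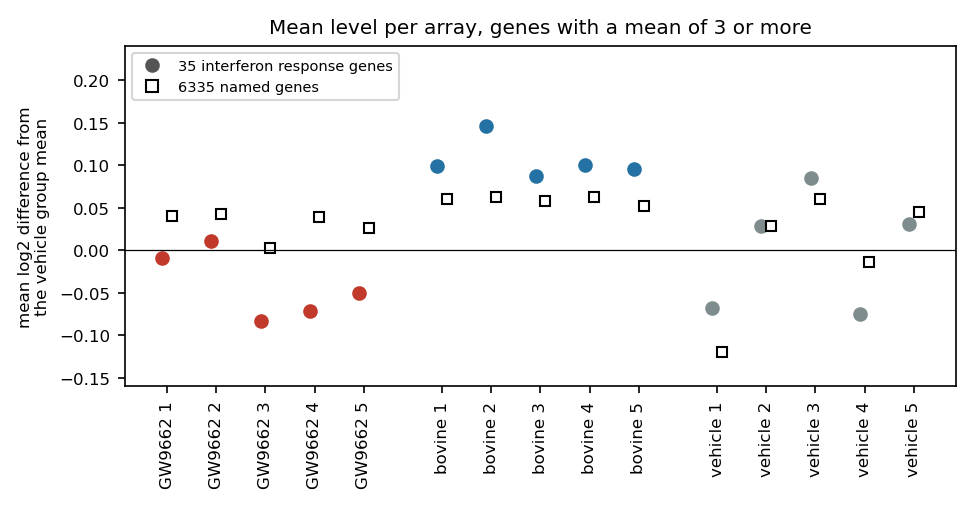
Mean log2 difference from the vehicle group mean, for each of the 15 arrays, over the 35 interferon response genes with a mean of 3 or more (filled circles) and over the 6335 named genes with a mean of 3 or more (open squares). The 5 GW9662 circles lie between -0.08 and 0.01, the 5 bovine circles between 0.09 and 0.15, and the vehicle circles span -0.07 to 0.08.

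Where a gene had several probe sets, they did not always agree. Of 11 members with more than 1, PARP12 was the gene whose called probe sets pointed in opposite directions between bovine and ovine vehicle arrays: 0.24 and 0.87 on bright probe sets, and -0.03 on one at the floor (2.66 in bovine arrays and 2.69 in vehicle arrays). The brightest B2M probe set did not pass (-0.07, adjusted p = 0.138), but its other 2 were lower in bovine cells, at -0.14 and -0.23 (adjusted p = 0.00884 and 0.00667). NMI was alike, with -0.20 on the brightest (adjusted p = 0.109) and -0.23 on the other (adjusted p = 0.00584). EIF2AK2 gave -0.13 and 0.19, and neither passed. Over all 62 member probe sets, 11 were higher in bovine cells, or 17.7% beside 15.6% of all probe sets, and 15 were lower, or 24.2% beside 29.6%. In either direction 45.2% of all probe sets passed. With GW9662 0 member probe sets passed, beside 0.183% of all probe sets (0.146% higher and 0.0375% lower).

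**Figure D5:**
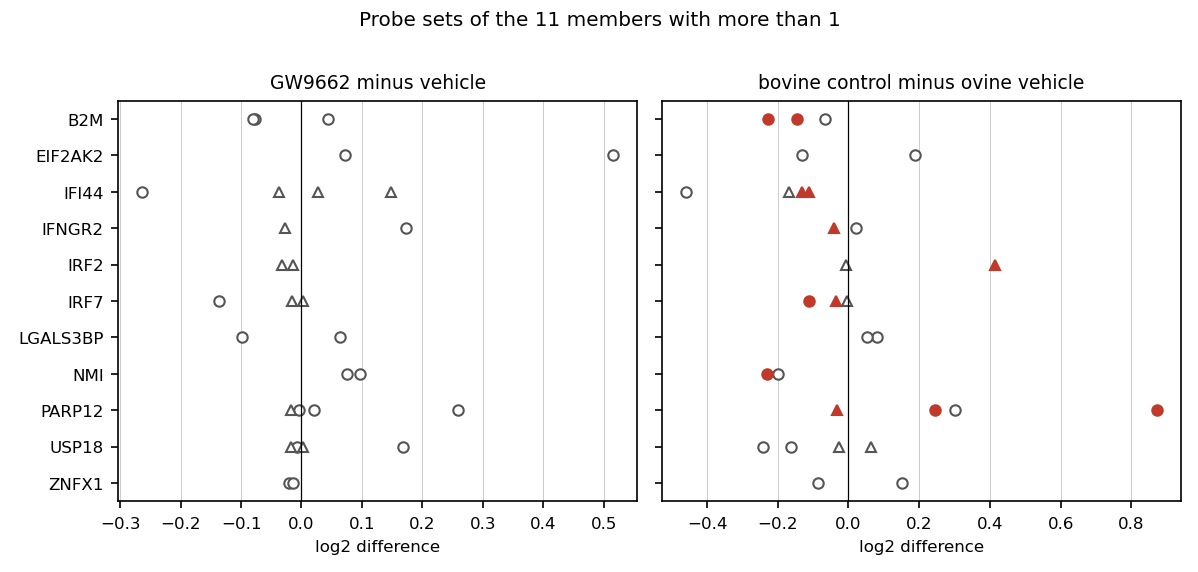
Log2 differences of every probe set of the 11 members with more than 1, for GW9662 minus vehicle on the left and bovine control minus ovine vehicle on the right, on different horizontal scales. Circles have a mean of 3 or more over the 15 arrays, triangles are dimmer, and filled symbols passed the threshold; on the right some genes, B2M, NMI and PARP12 among them, have both filled and open symbols, and on the left none is filled.

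A further list of 31 measured genes held other parts of the pathway. With GW9662 0 passed. At an unadjusted p under 0.05 in either direction there were 7, all lower, or 22.6% beside 20.1% of named genes, of which 702 were higher and 1140 lower. The immunoproteasome subunits PSMB8, PSMB9 and PSMB10, which interferon gamma induces, were at -0.26, -0.21 and -0.24 (adjusted p = 0.172, 0.217 and 0.217). Between bovine and ovine vehicle 12 were higher, 9 lower and 10 did not pass, or 67.7% called beside 49.2% of named genes. PSMB8 averaged 9.02 in bovine arrays and 8.20 in vehicle arrays (0.82, adjusted p = 9.35e-07), PSMB9 averaged 8.85 and 7.92 (0.93, adjusted p = 1.62e-05), and the guanylate-binding GTPase GBP5 averaged 6.36 and 5.09 (1.26). The phosphatase PTPN2, which dephosphorylates JAK and STAT proteins, was 0.32 higher, and its dimmer probe sets were 1.12 and 0.53 higher. Dimmer probe sets of GBP5 gave 0.52 (adjusted p = 0.0322) and, at the floor, 0.19 (adjusted p = 0.195) and -0.03 (adjusted p = 0.0334). On the lower side were ERAP1, the aminopeptidase that trims class I peptides, at 5.18 in bovine arrays and 7.26 in vehicle arrays (-2.09), the tryptophanyl-tRNA synthetase WARS1 (-1.02), IRF5 (-1.63) and IDO1 near the floor (-0.08). The WARS1 probe sets did not agree. Dimmer ones, all above the floor, gave -0.67 (adjusted p = 0.000127), -0.15 (adjusted p = 0.361) and -0.03 (adjusted p = 0.822). Within the interferon gamma and antigen processing genes of this list, 9 of 16 were higher and 5 lower, beside 21.9% and 27.3% of named genes. The higher ones also held PSMB10 (0.24), the proteasome activator subunits PSME1 (0.20) and PSME2 (0.28), the thiol reductase IFI30 (0.47), IFITM1 (0.36) and BOLA (0.16). The lower ones also held CXCL10 (-0.05) and CXCL11 (-0.06), both at the floor. The list was chosen with earlier results known, and its departure from the shares of named genes was not tested. The kinase JAK1 averaged 10.57 in bovine arrays and 10.64 in vehicle arrays and did not pass (-0.06, adjusted p = 0.122).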

How the data were processed

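The authors deposited log2 values of 24128 probe sets on 15 arrays, and the submitters' processing notes name RMA without a version. Array data hold no read depth, so precision rests on the number of arrays. The 112 control probe sets were left out. Symbols came from the platform annotation: 13292 probe sets had 1 symbol, 86 several and 10638 none. The brightest probe set over the arrays of a fit stood for its gene. Each comparison used its own 10 arrays in limma (version 3.58.1, R version 4.3.3; lmFit, then eBayes), and p-values were adjusted by Benjamini-Hochberg over 24016 probe sets with a threshold of 0.05. All adjusted p-values are from limma. The 3′ minus 5′ measure was averaged over 6 control transcripts. Neighbouring genes came from RefSeq's sheep gene table, where 40 of 43 members matched by symbol. The model was tested on simulated data.

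Members, lists and tests were chosen with earlier results of these data known. Values in every array were given for the 8 members of smallest p with GW9662, for up to 12 members per direction with the largest difference among those past the threshold without overlap between bovine and ovine vehicle, and for the 2 brightest members of each role. Where a group is not part of the comparison that named a member, its range or mean may stand in. Other members are named with means or counts, and up to 4 further pathway genes per direction by smallest p. HERC6 and IRF7 between bovine and vehicle, the PSMB9 and PSMB10 values with GW9662, IFNB1, IFNG, IFNAC and JAK1 were singled out after their values were seen. The same holds for PSMB10, PSME1, PSME2, IFI30, IFITM1, BOLA, CXCL10 and CXCL11 between bovine and vehicle. Alternatives were array scaling, dim probe sets, variance prior, array weights, all arrays in 1 fit, the replicate block, 1 probe set per gene, the 3′ minus 5′ measure, a size limit and leaving out each array. Promoter motifs and protein identities were not analysed here.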

Additional observations from a re-analysis of the deposited data

Results flagged for a closer look

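Among the 28 members chosen by rule, each group of 5 arrays was searched for an array far from the rest (Dixon's criterion), 84 groups in all. Chance flags about 1 in 20 groups, and 3 were found, each from a narrow range. ISG15 read 2.50 in bovine replicate 2, with the other bovine arrays between 2.45 and 2.46. XAF1 read 2.40 in GW9662 replicate 1, with the others between 2.43 and 2.44. The USP18 probe set that was brightest over the bovine and vehicle arrays read 4.23 in GW9662 replicate 1, with the others between 4.34 and 4.36.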

How the results depend on the processing

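The count of members called with GW9662 was 0 in each direction under all 19 alternatives (10 of which left out 1 array), while the count over all probe sets, 44 as reported, ran from 0 (replicate block, and the 3′ minus 5′ covariate) to 237 (all 15 arrays in 1 fit). Between bovine and ovine vehicle the 10 members called higher and 7 called lower became 1 and 1 with the 3′ minus 5′ covariate (6.67% of all probe sets called, against 45.2%) and 2 and 0 with a log2 difference of at least 1, and those called lower became 4 with dim probe sets left out. Leaving out 1 array gave 10 to 11 higher and 5 to 8 lower. With the covariate TAP1 (-0.0542), IRF7 (0.0499) and HERC6 (0.0421) changed sign and none of these passed; the cause was not tested. The share higher among called members was 58.8% as reported, 66.7% with array centring and 62.5% after a second quantile normalisation. The replicate block gave 9 higher and 5 lower (32.6% of members beside 31.3% of named genes), with IRF2 (adjusted p = 0.0523), IRF7 and HERC6 losing the call. Same-numbered arrays correlated between -0.19 and 0.17 for GW9662 and vehicle and between -0.10 and 0.09 for bovine and vehicle, so the numbers were not taken to pair the samples. Signal near the floor limits what can be read from the 7 members under 3 in every group and the 3 under 3 in some groups.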
